A study of Caenorhabditis elegans with 6 samples.

Results

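The loci described here are 10 *Caenorhabditis elegans* genes of nuclear RNA interference (RNAi) and heterochromatin, and the values are counts of the 22G-RNAs directed against their own transcripts. These small RNAs of 22 bases begin with G, lie antisense to their targets and are made by RNA-dependent RNA polymerases. The genes were chosen by name, by a rule that uses no measured value but was written with earlier results of these data known. They are *nrde-1*, *nrde-2*, *nrde-4*, *set-25*, *set-32*, *met-2*, *hpl-1*, *hpl-2*, *mes-2* and *mes-4*. All 10 were found among the 22336 loci counted, which were 22185 genes and 151 transposon families.

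Small RNAs were sequenced from whole gravid adults of the wild-type strain N2 and of *lotr-1(sam117)*, an allele on chromosome I that removes the entire *lotr-1* coding sequence, with 3 libraries per genotype. LOTR-1 is a germ granule protein with LOTUS and Tudor domains, and the question here was whether its loss altered 22G-RNAs against genes of the silencing machinery itself. The mutant was 1 allele in 1 strain, and the labels do not state whether libraries came from separate cultures, so the p-values measure only the spread between these libraries. In whole animals, fewer cells of a type and fewer 22G-RNAs per cell cannot be told apart.

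In nuclear RNAi, an Argonaute loaded with 22G-RNAs, NRDE-3 in somatic cells or HRDE-1 in the germline, finds nascent transcripts in the nucleus. NRDE-2, NRDE-1 and NRDE-4 then act at the target, where transcription is inhibited and histone H3 becomes methylated at lysine 9 (H3K9), a mark of heterochromatin. MET-2 and SET-25 are the main H3K9 methyltransferases, HPL-1 and HPL-2 are homologs of heterochromatin protein HP1, and the MES proteins methylate lysine 27 or lysine 36 of histone H3 and keep the germline viable. The counts describe small RNAs against the transcripts of these genes, and neither mRNA, protein nor histone marks were measured here.

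Libraries held 3150716 to 3829101 counts at the listed loci, and 3 counts, the limit below which a locus cannot be told from 0, were 7.83e-05% to 9.52e-05% of a library. This limit covers counting error only, because PCR duplicates may remain. Total counts were similar between genotypes, whereas the size factors of DESeq2 were 1.18 to 1.46 for N2 and 0.737 to 0.839 in *lotr-1(sam117)*. Each value therefore depends on the scaling. Across 11682 tested loci the median log2 fold change was 0.04 with size factors and -0.77 when libraries were scaled to equal totals, and the same locus typically differed by -0.79 between both scalings. Counts divided by size factors are called normalized counts below, and CPM, counts scaled to the same total in each library, are the second scale. The deleted gene fell in all 3 mutant libraries, with 40, 49 and 60 counts against 477, 522 and 563 in N2 (log2 fold change -2.62, SE 0.165, DESeq2 adjusted p = 1.99e-21 against 2-fold).

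22G-RNAs fell more than 2-fold at 2 of the 10 genes, *nrde-1* and *hpl-1*, and rose more than 2-fold at none. DESeq2 called 8.14% of all tested loci lower and 8.15% higher in this test at an adjusted p-value below 0.1. In the DESeq2 test against no change, 5 genes were lower, namely *nrde-1*, *nrde-2*, *met-2*, *hpl-1* and *hpl-2*, where 22.7% of loci were called lower, and no gene was called higher, where 20.4% of loci were. At an unadjusted p below 0.05, 0 genes were higher against 2-fold and 1, *set-25*, against no change, and edgeR called 0 and 2 higher in these tests. The 10 log2 fold changes ranged from -2.16 (*hpl-1*) to 0.18 (*set-25*), with a median of -0.22 beside 0.04 over all tested loci. Normalized counts did not overlap between genotypes at 5 genes that were lower and 2 that were higher in the mutant, beside 31.4% and 29.7% of tested loci. The other 3, *nrde-4*, *mes-2* and *mes-4*, overlapped.

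**Figure D1:**
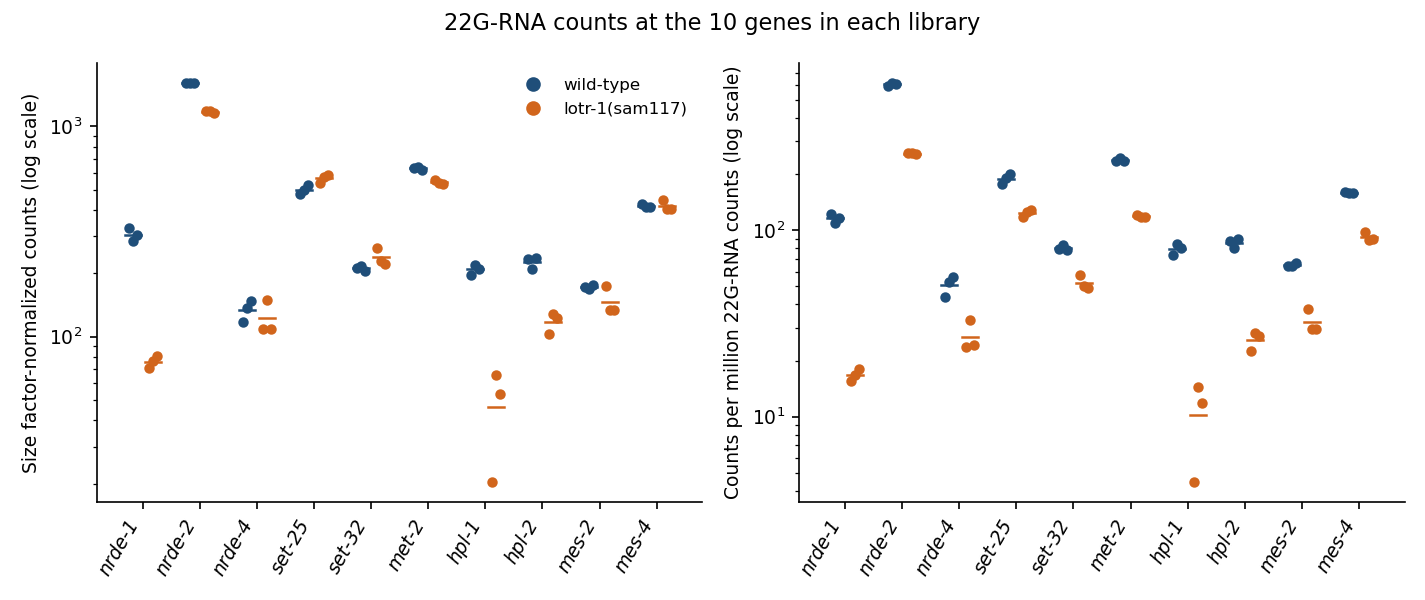
Each point is 1 library, with normalized counts on the left and CPM (counts scaled to equal library totals) on the right, both on log axes, and lines are means of 3 libraries. On the right scale every mutant library lies below every wild-type library at all 10 genes, whereas on the left scale *nrde-1*, *hpl-1* and *hpl-2* stand furthest below and *set-25* and *set-32* lie above.

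With total-count scaling all 10 genes were negative, from -2.95 (*hpl-1*) to -0.61 (*set-25*), and the median was -1.01 beside -0.77 over all loci. In that scaling 4 genes, *nrde-1*, *nrde-2*, *hpl-1* and *hpl-2*, passed the DESeq2 test against 2-fold, where 20.0% of loci were called lower, and all 10 passed the test against no change, where 46.7% were. No gene was higher in either test, where 4.26% and 9.22% of loci were. In CPM the libraries of the genotypes did not overlap at any of the 10 genes, which were all lower in the mutant, as were 59.7% of tested loci, whereas 13.8% of loci were higher without overlap. Together the 10 genes held 0.164%, 0.169% and 0.170% of all 22G-RNA counts of the N2 libraries against 0.0757%, 0.0764% and 0.0752% of the mutant libraries. The means were 0.168% ± 0.00298 and 0.0758% ± 0.000601 (SD, n = 3), a 2.21-fold lower share in *lotr-1(sam117)*. *nrde-2* alone supplied 36.4% ± 0.211 of the counts of the 10 genes in wild-type and 34.0% ± 0.127 in the mutant (SD, n = 3).

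**Figure D2:**
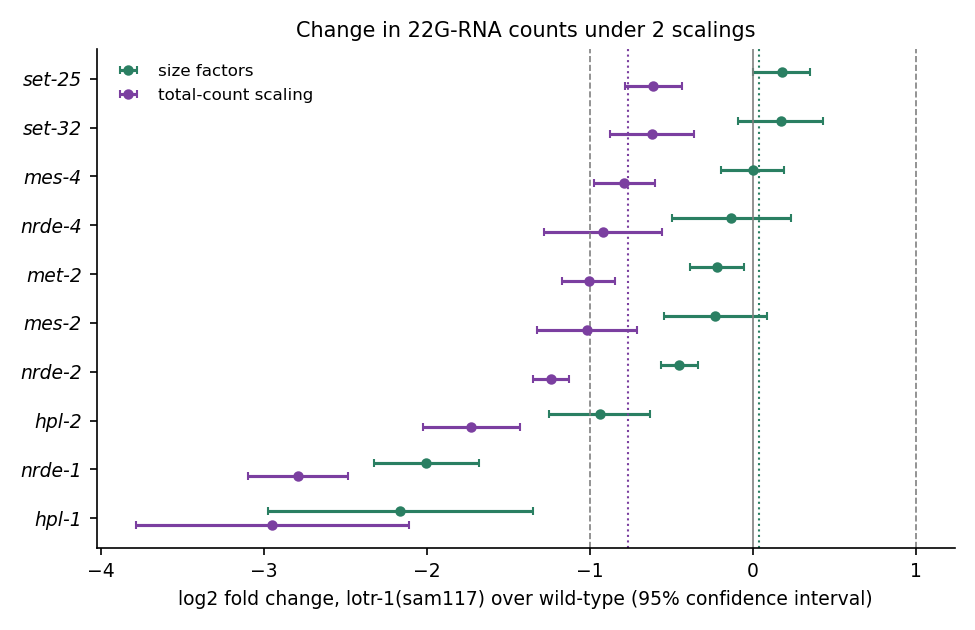
The log2 fold change of each gene is shown with its 95% confidence interval for both scalings, dashed lines mark a 2-fold change, and dotted lines mark the median of all tested loci under each scaling. *nrde-1* and *hpl-1* lie below -2 in both scalings, and *set-25* and *set-32* change from positive to negative.

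Among the NRDE factors, *nrde-1* stood apart. NRDE-1 associates with the pre-mRNA and chromatin of RNAi targets and depends on NRDE-2 to do so. *nrde-1* (WBGene00007577, chromosome III, 3713463 to 3718750, plus strand, WBcel235) gave 384, 378 and 447 counts per wild-type library against 52, 64 and 61 per mutant library, so that the highest mutant library lay far below the lowest wild-type library. Normalized counts fell from 305 ± 21.5 to 76.0 ± 5.31 (SD, n = 3), 4.01-fold (log2 fold change -2.0, SE 0.165, DESeq2 adjusted p = 1.30e-08 against 2-fold). With total-count scaling the fall was 6.93-fold. A lower log2 fold change was found at 7.26% of tested loci.

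*nrde-2* encodes the nuclear protein that Argonautes recruit to nascent transcripts, and it had the most 22G-RNAs of the 10 genes. *nrde-2* (WBGene00011333, chromosome II, 10242596 to 10247638, minus strand) gave 1885, 2137 and 2348 counts per wild-type library against 872, 988 and 869 per mutant library. Its normalized counts fell from 1604 ± 0.341 to 1172 ± 14.2 (SD, n = 3), 1.37-fold (log2 fold change -0.45, SE 0.0581, DESeq2 adjusted p = 5.61e-14 against no change and 1 against 2-fold). The closeness of the 3 wild-type values came after division by size factors, since the raw counts spread from 1885 to 2348. Both SDs lie below the counting error of counts of this size and are no measure of precision. The same holds for the SDs of *nrde-2* per kb given below. Several other SDs below, as counts or per kb, also lie under counting error and are no measure of precision. Among them are both SDs of *met-2* and the wild-type SDs of *mes-4*, *mes-2* and *set-32*.

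*nrde-4*, which is needed for H3K9 methylation at RNAi targets, had the lowest level per length in wild-type. *nrde-4* (WBGene00001584, chromosome IV, 7646320 to 7654262, minus strand) gave 138, 183 and 216 counts per wild-type library against 80, 125 and 82 per mutant library. Normalized counts were 134 ± 15.4 and 122 ± 23.2 (SD, n = 3), and replicate 2 of the mutant, at 149, exceeded all 3 wild-type libraries. The log2 fold change of -0.13 had a 95% confidence interval of -0.50 to 0.23 (DESeq2 adjusted p = 0.633 against no change), so a change of 2-fold lay outside the interval with size factors. Under total-count scaling its log2 fold change was -0.92.

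Both HP1 homologs had fewer 22G-RNAs in the mutant, and the paralogs differed in how far they fell. *hpl-1* (WBGene00001995, chromosome X, 13245390 to 13247044, plus strand) gave 231, 291 and 308 counts per wild-type library against 15, 55 and 40 per mutant library. The mutant libraries were all far lower but varied widely among themselves, with replicate 1 lowest. Normalized counts fell from 208 ± 11.1 to 46.4 ± 23.4 (SD, n = 3), 4.48-fold (log2 fold change -2.16, SE 0.415, 95% confidence interval -2.98 to -1.35, DESeq2 adjusted p = 0.0348 against 2-fold). This call against 2-fold was lost without any 1 of the 3 wild-type libraries (DESeq2 adjusted p = 0.168, 0.239 and 0.230) or without mutant replicate 3 (0.136), while the log2 fold change stayed between -2.50 and -1.81 over all 6 omissions. Against no change, DESeq2 called *hpl-1* lower in all 6 (highest adjusted p = 5.81e-04). With total-count scaling the fall was 7.73-fold and the call against 2-fold held in all 6 omissions (highest DESeq2 adjusted p = 0.00479).

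*hpl-2* (WBGene00001996, chromosome III, 10752195 to 10755530, minus strand), the HP1 gene required for fertility at elevated temperature, gave 275, 279 and 344 counts per wild-type library against 76, 107 and 92 per mutant library. Normalized counts fell from 226 ± 14.5 to 118 ± 12.9 (SD, n = 3) without overlap, 1.92-fold (log2 fold change -0.94, SE 0.158, DESeq2 adjusted p = 1.66e-08 against no change and 1 against 2-fold). Under total-count scaling the log2 fold change was -1.73 and passed the test against 2-fold (DESeq2 adjusted p = 1.47e-05).

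None of the H3K9 methyltransferase genes *met-2*, *set-25* and *set-32* passed the 2-fold test in either scaling. *met-2* (WBGene00019883, chromosome III, 8375300 to 8380848, plus strand), whose product makes the lower methylation states of H3K9, gave 745, 849 and 902 counts per wild-type library against 407, 451 and 399 per mutant library. Normalized counts of 629 ± 11.2 in N2 and 540 ± 11.0 in the mutant (SD, n = 3) did not overlap, and the fall of 0.22 on the log2 scale passed DESeq2 against no change (SE 0.0838, adjusted p = 0.0248). That call was lost without mutant replicate 3 (DESeq2 adjusted p = 0.115), with size factors taken from high-count loci (0.125) and with a filter on low counts (0.106).

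*set-25* encodes an enzyme that trimethylates H3K9. *set-25* (WBGene00012802, chromosome III, 13283824 to 13293090, minus strand) gave 558, 663 and 766 counts per wild-type library against 397, 479 and 439 per mutant library. Normalized counts were 499 ± 24.4 and 565 ± 23.3 (SD, n = 3), with no overlap, and the log2 fold change of 0.18 (95% confidence interval 0.0028 to 0.35) was not called by DESeq2 against no change (adjusted p = 0.107). It was called higher by edgeR and under 2 other settings, and its sign turned with total-count scaling, where the log2 fold change was -0.61.

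*set-32* encodes a SET-domain protein that helps to establish inherited silencing. *set-32* (WBGene00008062, chromosome I, 9519244 to 9521275, plus strand) gave 249, 289 and 301 counts per wild-type library against 194, 192 and 167 per mutant library. Normalized counts of 212 ± 5.64 and 238 ± 22.04 (SD, n = 3) gave a log2 fold change of 0.17 (95% confidence interval -0.09 to 0.43, DESeq2 adjusted p = 0.341 against no change), and -0.62 with total-count scaling. *set-25* and *set-32* thus had estimates of the same sign and similar size with size factors. Their likeness under total-count scaling follows from this, because that scaling shifts loci by about -0.79 alike. Neither was called by DESeq2 with the size factors used here, whereas edgeR called both higher against no change.

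The MES genes did not pass either DESeq2 test with size factors. *mes-2* (WBGene00003220, chromosome II, 14383973 to 14388454, plus strand), the catalytic subunit of the H3K27 methyltransferase complex, gave 203, 223 and 256 counts per wild-type library against 128, 112 and 100 per mutant library. Its normalized counts were 172 ± 3.87 and 147 ± 23.3 (SD, n = 3), and mutant replicate 1, at 174, lay within the wild-type range. The log2 fold change was -0.23 (95% confidence interval -0.55 to 0.09, DESeq2 adjusted p = 0.279 against no change).

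*mes-4* (WBGene00003222, chromosome V, 13433050 to 13437545, minus strand), the H3K36 methyltransferase that carries a memory of germline transcription to the next generation, gave 504, 551 and 605 counts per wild-type library against 330, 339 and 304 per mutant library. Normalized counts were 418.6 ± 8.83 and 418.7 ± 25.2 (SD, n = 3), and the 95% confidence interval of the log2 fold change ran from -0.19 to 0.19 (DESeq2 adjusted p = 1.00 against no change). *mes-4* therefore moved with the typical locus, and with total-count scaling its log2 fold change was -0.79, the shift between both scalings.

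Levels were compared between genes per kb of merged exon. In wild-type *nrde-2* was highest, at 396 ± 0.0842 normalized counts per kb, above 96.4% of 16169 protein-coding genes with a count in any library. *hpl-1*, with only 802 bases of exon, was next at 260 ± 13.8, followed by *set-25* at 178 ± 8.70 and *hpl-2* at 176 ± 11.3, whose libraries overlapped. *met-2* stood at 152 ± 2.72, *mes-4* at 134 ± 2.83 and *set-32* at 128 ± 3.41 normalized counts per kb. *nrde-1* followed at 114 ± 8.04, *mes-2* at 69.2 ± 1.56 and *nrde-4* at 52.9 ± 6.05 (SD, n = 3 throughout). Apart from *set-25* and *hpl-2*, no neighbours in this order overlapped between libraries, and all 10 lay above 72.4% or more of protein-coding genes. Some gaps were smaller than counting error. The lowest *mes-4* library was at 132.5 and the highest of *set-32* at 131.2. The lowest *set-32* library was at 124.4 and the highest of *nrde-1* at 122.3. The wild-type ranks of *mes-4*, *set-32* and *nrde-1* are therefore not settled.

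In *lotr-1(sam117)* the order of the levels per kb differed at 8 of the 10 genes. *hpl-1* moved from rank 2 to rank 8, at 57.8 ± 29.1 normalized counts per kb, and *set-32* from rank 7 to rank 3, at 144 ± 13.3 (SD, n = 3). *nrde-1* moved from rank 8 to rank 10, at 28.5 ± 1.99, and *hpl-2* from rank 4 to rank 6, at 91.5 ± 9.998 (SD, n = 3). In the other direction *mes-4* moved from rank 6 to rank 4, at 134 ± 8.06, and *mes-2* from rank 9 to rank 7, at 59.2 ± 9.41 (SD, n = 3). *nrde-2* remained first at 289 ± 3.50, *set-25* was second at 202 ± 8.34, *met-2* remained at rank 5, at 131 ± 2.65, and *nrde-4* stood at rank 9, at 48.1 ± 9.13 (SD, n = 3). Several of these ranks are not settled by the libraries. Those of *set-32*, *mes-4* and *met-2* lay between 129 and 159 and overlapped from each gene to the next. The *hpl-1* libraries, at 25.4, 81.7 and 66.4, overlapped those of *hpl-2*, *mes-2*, *nrde-4* and *nrde-1*. The share of protein-coding genes lying below fell from 94.4% to 78.0% for *hpl-1* and from 86.6% to 65.7% for *nrde-1*, whereas it was 91.7% and 93.3% for *set-25*.

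**Figure D3:**
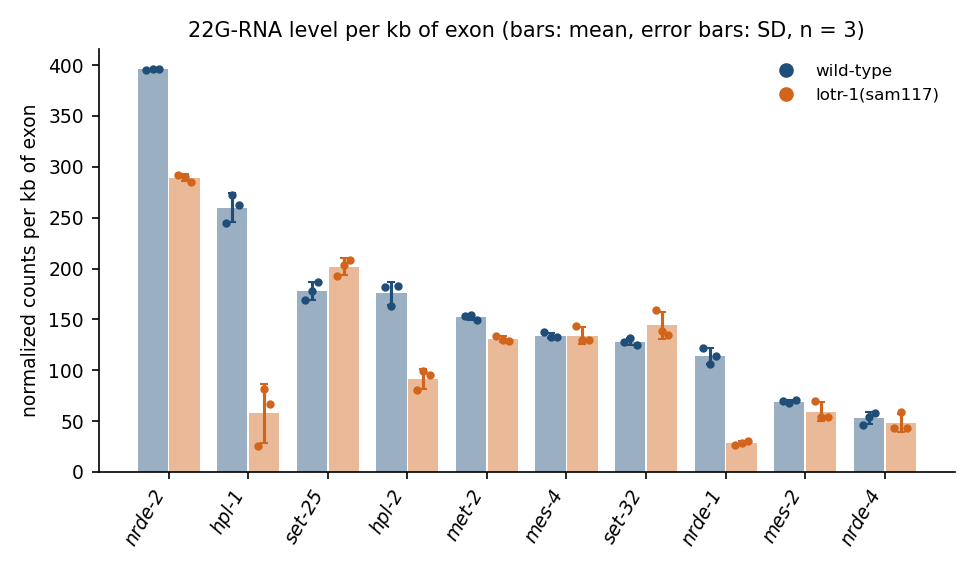
Bars are mean normalized counts per kb of exon with SD as error bars (n = 3), points are libraries, and genes are ordered by their wild-type mean. *hpl-1* drops from 260 to 57.8 and *nrde-1* from 114 to 28.5, while *mes-4* stays at 134.

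Ratios of raw counts within 1 library do not depend on the scaling, and 7 pairs of genes with related roles were compared, chosen after the values had been seen. *nrde-1* over *nrde-2* was 0.204, 0.177 and 0.190 in N2 against 0.0596, 0.0648 and 0.0702 in mutant libraries, a log2 difference of -1.55. *hpl-1* over *hpl-2* was 0.840, 1.04 and 0.895 in N2 against 0.197, 0.514 and 0.435 in mutant libraries, a log2 difference of -1.38. In both pairs no mutant library reached the wild-type range.

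*set-25* over *met-2* was higher in the mutant, at 1.05 ± 0.0640 against 0.793 ± 0.0512 (SD, n = 3, log2 difference 0.40), as was *set-32* over *met-2*, at 0.440 ± 0.0317 against 0.336 ± 0.00372 (SD, n = 3, log2 difference 0.39). *mes-2* over *mes-4* was lower, at 0.349 ± 0.0336 against 0.410 ± 0.0112 (SD, n = 3). These 5 pairs did not overlap between genotypes. Each had p = 0.1 in an exact two-sided permutation test of the log2 ratios, the smallest value that 3 libraries against 3 allow. The adjusted p of each was 0.14 over the 7 pairs. Ratios between other loci were not computed, so the share of all pairs without overlap is not known. For single loci, normalized counts did not overlap at 31.4% (lower) and 29.7% (higher) of tested loci. *nrde-4* over *nrde-2* (exact p = 0.2) and *set-32* over *set-25* (exact p = 1) overlapped. The ratio of *set-32* to *set-25* was 0.425 ± 0.0283 in wild-type and 0.423 ± 0.0575 in the mutant (SD, n = 3). With 3 libraries against 3, no pair could reach an exact p below 0.05.

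**Figure D4:**
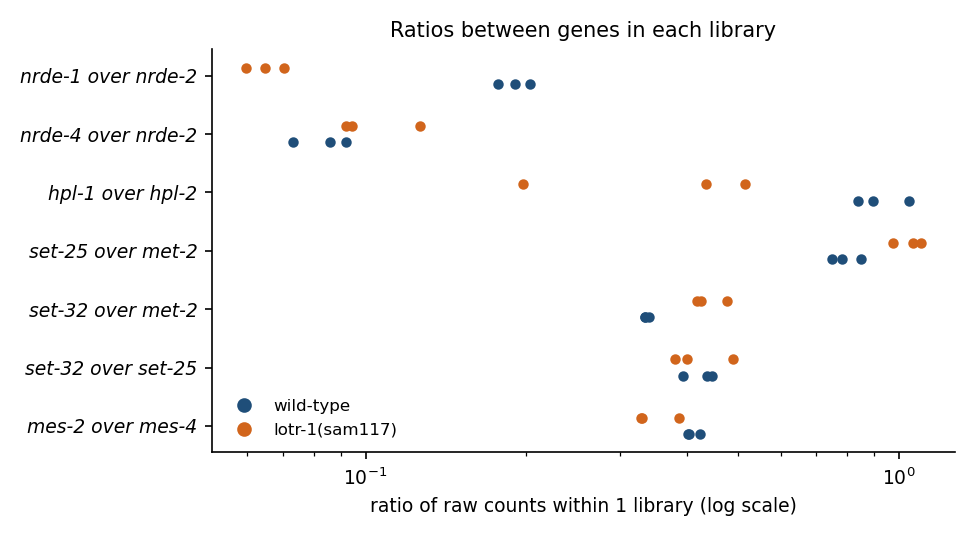
Each point is the ratio of raw 22G-RNA counts of a pair of genes in 1 library, on a log axis. The *nrde-1* over *nrde-2* and *hpl-1* over *hpl-2* ratios separate the genotypes most widely, and the *set-32* over *set-25* ratios of both genotypes overlap.

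The surroundings of the genes were also examined. No annotated gene overlapped an exon of the 10 genes on the same strand, and short overlaps on the opposite strand (99 bases at *nrde-1*, 91 at *nrde-4* and 64 at *set-25*) do not share reads, since counting used strand. Whether reads from *hpl-1* also align to its paralog *hpl-2* was not tested. The gene 114 bases before *nrde-1* on the same strand, *alkb-8*, was also lower against no change in DESeq2, with -0.56 as its log2 fold change (SE 0.165, adjusted p = 0.00272, and 1 against 2-fold). On the other side of *nrde-1*, 1153 bases away on the other strand, WBGene00007578 was lower against no change as well (log2 fold change -0.91, SE 0.0581, DESeq2 adjusted p = 4.18e-54), and past 2-fold under total-count scaling (-1.70, adjusted p = 3.90e-33). Both values were less negative than that of *nrde-1*, and 22.7% of all tested loci were called lower against no change. Beside *hpl-1*, K08H2.5 gave 28, 36 and 45 counts per wild-type library against 23, 26 and 17 per mutant library (log2 fold change 0.05), and K08H2.7 had 0 in every library. Beside *hpl-2*, *enu-3.6*, 264 bases away on the other strand, had a log2 fold change of -0.86 (SE 0.0961), close to that of *hpl-2*, and *rnf-113* on the other side had 0.29 (SE 0.191). Neighbours of the remaining genes did not all move with them. R05D3.12, 96 bases from *met-2* on the same strand, had -1.15 (SE 0.191), where *met-2* had -0.22. *sdz-26*, 593 bases from *mes-2* on the same strand, had 1.01 (SE 0.0475), where *mes-2* had -0.23. Others lay close to their gene, such as *npp-18* (0.15) beside *set-25* (0.18). Differences between a gene and its neighbour were not tested.

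Other genes of nuclear RNAi and chromatin silencing were placed in 4 lists of 39 genes in all, of which 38 were tested against 2-fold. With size factors 3 were lower and 1 was higher past 2-fold, beside 8.14% and 8.15% of tested loci, and 18 were lower and 8 higher in the DESeq2 test against no change, beside 22.7% and 20.4%. The 8 became 4 without wild-type replicate 1, 5 without any 1 of wild-type replicates 2 and 3 and mutant replicates 2 and 3, and 7 without mutant replicate 1. The median log2 fold change of the 38 genes was -0.26 with size factors, or -1.05 under total-count scaling. With total-count scaling 14 were lower and 1 higher past 2-fold, beside 20.0% and 4.26% of tested loci.

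With size factors, all 4 genes past the 2-fold test were in the list named H3K9 methylation and heterochromatin readers. This list had 11 genes and was not limited to these roles, since it also held the repressor *lin-15B*. The lists were chosen with earlier results of these data known, so nothing is concluded from the 4 genes sharing a list. With total-count scaling, 5 genes of this list and 2, 1 and 6 of the other lists were lower past 2-fold, beside 20.0% of tested loci. *cec-8*, which encodes a chromodomain protein, gave 1037, 1094 and 1205 counts per wild-type library against 87, 89 and 113 per mutant library, a 6.77-fold fall with size factors (log2 fold change -2.76, SE 0.121, DESeq2 adjusted p = 1.86e-46 against 2-fold). *arle-14* encodes a partner of MET-2, and it went from 279, 377 and 346 counts to 34, 54 and 48 (log2 fold change -2.11, SE 0.190, DESeq2 adjusted p = 5.34e-08). *cec-4* encodes the chromodomain protein that tethers H3K9-methylated chromatin to the nuclear envelope, and its counts were 162, 169 and 193 against 20, 39 and 26 (log2 fold change -1.86, SE 0.244, DESeq2 adjusted p = 0.00324).

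Among the 4 genes past 2-fold, the exception in direction was *lin-15B*, a repressor of germline genes in somatic cells. It rose from 626, 669 and 701 counts to 4369, 4957 and 4484, 11.8-fold with size factors, or 6.82-fold under total-count scaling (log2 fold changes 3.56, SE 0.0531, and 2.77, SE 0.0525, both called by DESeq2 against 2-fold). It shares 5 bases of exon with *lin-15A* on the same strand, where reads are uncertain. The remaining gene of this list that was not tested, *set-6*, gave 0, 0 and 3 counts per wild-type library against 1, 7 and 1 per mutant library. The median log2 fold change of the 10 tested genes of this list was -0.64. Against no change, DESeq2 called 6 genes of this list lower and 2 higher, beside 22.7% and 20.4% of all loci tested.

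Among 9 genes of nuclear Argonautes and NRDE partners, 3 were lower and 3 higher in the DESeq2 test against no change (22.7% and 20.4% of all loci tested). With size factors none passed the test against 2-fold, whereas 2 were lower past it with total-count scaling, beside 20.0% of loci. The largest change by the naming rule was at *enri-1*, whose counts of 8, 11 and 11 in N2 against 10, 15 and 17 in mutant libraries were few (log2 fold change 1.26, SE 0.547, DESeq2 adjusted p = 0.0550 against no change), and with total-count scaling it was 0.47. Named here after their values were seen, *hrde-1*, the germline nuclear Argonaute, had a log2 fold change of -0.24 (SE 0.0587) and *hrde-4* one of -1.03 (SE 0.0790), both below no change in DESeq2 (adjusted p = 1.56e-04 and 8.21e-38).

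Among 8 genes of the list named PRC2, H3K36 methylation and chromodomain partners, 1 was lower and 1 higher against no change, beside the same 22.7% and 20.4% of loci. The largest change was at *lin-35*, the Retinoblastoma homolog, which changed by -0.83 on the log2 scale (SE 0.107, adjusted p = 5.22e-14 in DESeq2 against no change). It passed 2-fold with total-count scaling (log2 fold change -1.62, DESeq2 adjusted p = 3.25e-08). Among 11 genes of H3K4 methylation and histone demethylation, 8 were lower and 2 higher against no change, again beside 22.7% and 20.4% of loci. The largest change there was at *wdr-5.1*, a subunit of the H3K4 methyltransferase complex, whose counts were 165, 162 and 231 against 33, 44 and 38 (log2 fold change -1.51, SE 0.222, DESeq2 adjusted p = 0.137 against 2-fold). With total-count scaling *wdr-5.1* passed 2-fold (log2 fold change -2.29).

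**Figure D5:**
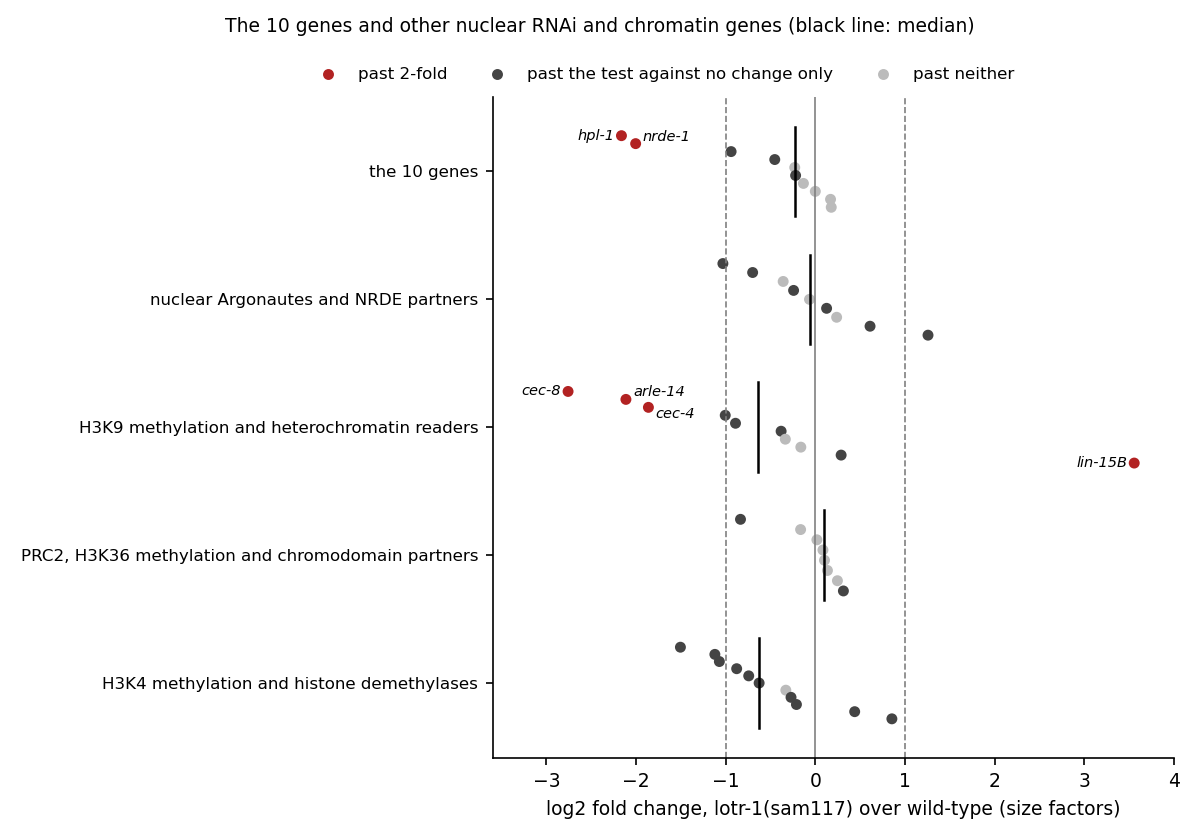
Each point is 1 gene tested against 2-fold, with its log2 fold change on the x axis, colours mark the DESeq2 calls, black lines are medians, and dashed lines mark a 2-fold change. The genes past 2-fold are *hpl-1* and *nrde-1* among the 10 genes and *cec-8*, *arle-14*, *cec-4* and *lin-15B* in the list of H3K9 methylation and heterochromatin readers.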

How the data were processed

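22G-RNAs were counted in gravid adults, 3 libraries of N2 and 3 of *lotr-1(sam117)*, from RNA treated with RppH so that triphosphorylated small RNAs could be ligated. The deposited values were raw counts per locus. The authors trimmed reads with cutadapt 2.4, aligned them to WBcel235/ce11 with Bowtie 1.2.2 (1 mismatch, 1 random best position for multi-mapping reads, so counts of near-identical copies are uncertain) and assigned reads of 22 bases that start with G, antisense to exons (Ensembl release 96) or transposons, with featureCounts 1.6.2.

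Symbols, positions and merged exon lengths came from Ensembl release 115 on the same assembly, in which 22014 of 22185 gene identifiers were found, with all 10 genes and all 39 listed genes among them. Coordinates are 1-based. All loci were fitted with DESeq2 1.42.0 in R 4.3.3 with median-of-ratios size factors. Wald tests were run against a 2-fold change and against no change, at a Benjamini-Hochberg FDR of 10% over all loci, with unshrunken fold changes. The study's methods give cutoffs of 10% FDR and 2-fold change and do not state a test against 2-fold. Past 2-fold here means that test, which is stricter than a cutoff on the estimate. Genes such as *hrde-4* (log2 fold change -1.03) and *wdr-5.1* (-1.51) passed the test against no change with estimates beyond 2-fold and are not counted. edgeR 4.0.16 with TMM factors, total-count scaling, other filters, an FDR of 5%, a replicate block and leaving out each library were alternatives. Scripts were tested on simulated counts. The genes and lists were chosen with earlier results of these data known. Genes outside the 10 were named if past 2-fold, or else as the largest change of a list in the test against no change, given a mean normalized count of 10 or more.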

Additional observations from a re-analysis of the deposited data

How the results depend on the processing

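Total-count scaling changed the most results. It gave 4 of the 10 genes lower past 2-fold and 10 in the test against no change, 14 of the 39 listed genes lower past 2-fold, and 33 lower and 1 higher against no change. Over all loci it gave 2331 lower and 498 higher past 2-fold in place of 951 and 952, and 6576 and 1297 against no change in place of 3039 and 2726. *set-25* (-0.61) and *set-32* (-0.62) turned negative. The difference is one of scaling by construction, and these data cannot tell which of the scalings follows the amount of 22G-RNA in an animal.

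In the test against no change, *set-25* and *set-32* were called higher (2 genes) with edgeR (0.24 and 0.23) and when loci needed 10 counts in 3 libraries (0.25 and 0.25), and *set-25* alone (1 gene, 0.24) when size factors came from loci averaging 100 counts or more. *met-2* lost its call in the latter 2 settings (-0.14 and -0.16). *mes-4* turned positive in all 3 (0.0632, 0.0763 and 0.0607), and ranged from -0.0484 to 0.0307 over the omissions of a library, with every adjusted p at 0.458 or above. The cause was not tested.

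Leaving out each library gave 1 or 2 of the 10 genes lower past 2-fold, and 4 to 7 of the listed genes higher against no change in place of 8. The 10 genes' share of all counts was 0.0918 percentage points lower in the mutant, 0.0963 when transposons were left out of the total. Replicate numbers were shared between genotypes, but deviations of same-numbered libraries correlated by only 0.00659, -0.0144 and 0.0351 over 4270 loci. These values showed no shared deviation, but cannot tell whether same-numbered libraries were handled together. With the replicate block the 10 genes gave 2 and 5 lower, as without it, and 4 listed genes were higher against no change. The alternatives based on possible 22-base windows were not run, since no genome sequence was used here.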
